A study of Mus musculus with 12 samples.

Results

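The 201 genes described here are the mouse protein-coding genes whose symbol is Zfp followed by a number and whose mean raw count over 12 messenger RNA libraries of cultured keratinocytes was at least 50. They come from 394 such symbols among 54532 listed genes. Another 136 of these symbols had counts but a lower mean, and 57 had 0 counts in every library. The members were thus chosen by their mean count, which is given as a description with no test. Just inside the minimum were Zfp969, Zfp729b and Zfp119b with mean counts of 54.3, 53.3 and 53.25. Just outside it were Zfp334 and Zfp74, both at 49.25, and Zfp111 at 48.8.

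All 12 libraries came from keratinocytes, the cells that build the epidermis, with the genotype labelled WT DP-BirA(1-584). DP-BirA is a fusion of residues 1 to 584 of desmoplakin, a protein that anchors cell junctions called desmosomes, to the biotin ligase BirA. Confluent cells in every group received calcium (1.2 micromolar as the label writes it) to induce differentiation and 2 µg/mL doxycycline to induce the fusion, were wounded or left unwounded, and were then given biotin for 16 h. The translating fraction of a sucrose gradient was incubated with neutravidin, a resin that holds biotin. RNA held by the resin is the cortical fraction. What the resin left behind is the fraction labelled total, which is therefore not an unselected input. Fraction and wounding together define 4 groups with 3 libraries each. The titles call the libraries of a group biological replicates without saying whether they were separate cultures, so p-values measure the spread between these libraries. The promoter of the fusion gene and the origin of the cells are not given in the sources used here.

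Zfp is a naming convention more than a family. Most of these proteins carry C2H2 zinc fingers, short loops in which a pair of cysteines and a pair of histidines hold a zinc ion and present an alpha helix that reads DNA bases, and they act in the nucleus as transcription factors. A large subgroup also carries a KRAB box, which recruits the corepressor Trim28 and through it the histone methyltransferase Setdb1, and silences retroelements and imprinted loci. A few members work outside the nucleus: Zfp36 and its paralogs have CCCH fingers, bind AU-rich elements in mRNA and recruit the CCR4-NOT deadenylase, while Zfp598 senses collided ribosomes and Zfp622 takes part in assembly of the large ribosomal subunit.

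The total count per library was 8980013 to 23457548. Wounded total replicate 1 stood apart from the other libraries: 13117 genes had a count in it against 14393 to 16867 elsewhere. In it 3 members had 0 counts although at least 10 were expected from their level in the other libraries of its group. Wounded cortical replicate 1 had 1 such member. Results are therefore also given without wounded total replicate 1 where they change. Keratinocyte markers were present in every library (10 of 10 tested). Their summed level was 8500 to 10361 CPM in unwounded total, 14921 to 15083 in unwounded cortical, 14753 to 16444 in wounded total and 19904 to 20648 in wounded cortical libraries, so it moved with both fraction and wounding, and its part in the results was not tested. The summed levels of fibroblast, melanocyte, immune and endothelial markers were at most 6.81, 11.3, 0.299 and 1.97 CPM. Thy1, Dcn, Tyr, Tyrp1, Cd207, Adgre1, Itgam, Lyz2, Csf1r, Cdh5 and Cldn5 were at 0 in all 12 libraries. CPM is a gene's count divided by the library's total and scaled to the same round total in every library.

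The finger types of some members named below can be read in the coding sequence. The stretches shown run from the first cysteine to the last histidine of 1 finger, 5′ to 3′ on the coding strand. Capitals mark the codons at the cysteine and histidine positions that define the finger, and other codons are in lower case. Positions are on GRCm38 and every stretch lies within 1 coding exon. The first 3 are the CCCH fingers of the mRNA decay factors, of which Zfp36 differed between groups and the other 2 did not pass the test. They are followed by C2H2 fingers of 3 genes that were higher in the cortical fraction in both unwounded and wounded cells and of Zfp428, which was lower in both.
Zfp36 (chr7:28378158-28378217, minus strand): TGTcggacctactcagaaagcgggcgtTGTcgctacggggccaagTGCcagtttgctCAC
Zfp36l1 (chr12:80110189-80110248, minus strand): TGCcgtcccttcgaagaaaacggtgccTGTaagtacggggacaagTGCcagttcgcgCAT
Zfp36l2 (chr17:84186668-84186727, minus strand): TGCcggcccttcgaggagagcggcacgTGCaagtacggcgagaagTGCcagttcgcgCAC
Zfp282 (chr6:47904926-47904988, plus strand): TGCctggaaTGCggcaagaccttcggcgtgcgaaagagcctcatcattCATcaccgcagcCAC
Zfp131 (chr13:119775972-119776034, minus strand): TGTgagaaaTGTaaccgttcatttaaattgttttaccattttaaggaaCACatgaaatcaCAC
Zfp217 (chr2:170120166-170120231, minus strand): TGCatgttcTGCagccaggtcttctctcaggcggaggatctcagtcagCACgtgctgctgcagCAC
Zfp428 (chr7:24515450-24515512, plus strand): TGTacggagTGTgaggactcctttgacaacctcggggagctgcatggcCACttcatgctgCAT

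The CCCH stretches hold 3 cysteine codons and 1 histidine codon, all in capitals, in 60 bases in all 3 paralogs. The C2H2 stretches hold 2 of each in capitals in 63 bases, or 66 in Zfp217. Those of Zfp282, Zfp131 and Zfp428 also hold a further histidine codon in lower case. Zfp428 has 1 such finger in a coding sequence of 567 bases, Zfp282 and Zfp131 have 5 each and Zfp217 has 6. Zfp36 lies at chr7:28376784-28380253, Zfp282 at chr6:47877204-47908485, Zfp131 at chr13:119765187-119790889, Zfp217 at chr2:170108643-170148103 and Zfp428 at chr7:24507006-24515682.

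Counted with the pattern C-x(2,4)-C-x(3)-[LIVMFYWC]-x(8)-H-x(3,5)-H in the translated GENCODE M21 transcripts, 191 of the 201 members held at least 1 C2H2 finger. The median was 9 fingers and the highest number 30. The 10 without the pattern include the 3 CCCH paralogs, which had 2 CCCH copies each, Zfp750, an epidermal differentiation factor, and Zfp185, an actin-associated LIM protein. The authors' own annotation column placed 164 members in the zf-C2H2 family and 2 in ZBTB, and gave no family for 35. A pattern for the KRAB A box was found in 81 members. It is wider than the planned pattern, which held 49 members, and was added after seeing the data. The 201 members were unevenly spread over the genome, with 47 on chromosome 7 and 21 on chromosome 17. The median coding length was 1782 bases, from 228 in Zfp706 to 8094 in Zfp292, against 1368 for the 9497 other protein-coding genes at the same count minimum.

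These mRNAs were scarce. On the FPKM scale, which divides counts by gene length and library size, the median member stood at 2.33 and the median of the 9497 other genes at 5.62. The 5 highest members were Zfp385a (61.6), a protein that binds p53 and certain mRNAs, Zfp706 (45.8), a very small single-finger protein, Zfp692 (23.2), Zfp36l2 (21.4) and Zfp219 (19.9). KRAB members had a median FPKM of 1.74, other C2H2 members 2.66, and the 10 without the C2H2 pattern 4.81. Counts set the precision: the median standard error of a member's log2 fold change between fractions in unwounded cells was 0.41 for the 50 members with a mean of 50 to 100 counts and 0.15 for the 53 with at least 400. Sequence sharing adds an uncertainty that counts do not show, since 17 members had over 20% of their 50-base words in common with another gene, among them Zfp36l1 (54.4%), Zfp524 (46.7%), Zfp532 (25.6%) and Zfp106 (24.7%). The libraries were not directional, so the 21 members with an exon that overlaps a tested gene on the other strand, Zfp219, Zfp646 and Zfp653 among them, could not be separated from it.

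As a share of all counts, the 201 members took 0.365% ± 0.0149 (SD, n = 3) of unwounded total and 0.433% ± 0.00445 of unwounded cortical libraries. After wounding the shares were 0.338% ± 0.0438 for total and 0.408% ± 0.00308 for cortical libraries. Each of the 3 unwounded cortical libraries (0.429% to 0.438%) held a larger share than each unwounded total library (0.349% to 0.379%). The wounded cortical libraries (0.405% to 0.411%) were also above all wounded total libraries (0.312% to 0.388%), with wounded total replicate 1 at the top of its group. The 81 KRAB members took 0.0849% ± 0.00237 and 0.107% ± 0.00325 in unwounded total and cortical libraries, and 0.0833% ± 0.00902 and 0.0966% ± 0.000595 in wounded ones. These shares are not corrected for composition.

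Setting cortical against total libraries asks how the level of an mRNA differs between translating RNA captured through the desmoplakin fusion and the rest. In unwounded cells 15 members were higher and 7 lower in the cortical fraction at an adjusted p under 0.05 (edgeR quasi-likelihood test, Benjamini-Hochberg over 13571 genes), here termed called. That is 10.9% of the members, against 14.2% of all genes tested (6.62% higher, 7.59% lower) and 19.2% of the other protein-coding genes at the same count minimum. The median log2 fold change was 0.07 for members and 0.00 for all genes. Of the 201 members 121 (60.2%) were above 0, against 50.2% of all genes and 52.3% of the other protein-coding genes at the same count minimum. The 3 cortical and 3 total values did not overlap for 69 members, against 36.2% of all genes. With plain library size scaling, under which the median of all genes was 0.19, the split became 25 higher and 1 lower, and the members' median relative to all genes stayed at 0.07. Without wounded total replicate 1, which enters through the shared estimate of the spread, 37 members were called, 24 higher and 13 lower. Leaving out other libraries 1 at a time gave 12 (without unwounded total replicate 2) to 21. Counts from alternative fits, here and below, stand without the share of all genes called in the same fit. They therefore cannot show a change particular to the members. Because each library is a bulk fraction, fewer cells of a type and less RNA per cell cannot be told apart.

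Zfp282, a KRAB-type repressor, had the largest increase among the called members in unwounded cells. It stood at 43.2, 36.3 and 48.8 CPM (replicates 1 to 3, TMM scaled as all CPM values from here on) in the total and 97.5, 86.95 and 89.3 CPM in the cortical libraries. The groups did not overlap, with a log2 fold change of 1.09 ± 0.13 (SE, adjusted p = 0.000121). Zfp131, which combines a BTB domain with C2H2 fingers, had 13.2, 16.9 and 17.8 CPM in the total and 25.5, 35.5 and 37.9 CPM in the cortical libraries, a log2 fold change of 1.04 ± 0.18 (adjusted p = 0.00138). Every cortical library was above every total library for both genes. Zfp217, an oncogene product that works with corepressors, had 16.8, 14.3 and 16.1 CPM in the total and 28.3, 27.4 and 30.9 CPM in the cortical libraries (log2 fold change 0.88 ± 0.16, adjusted p = 0.00208). Zfp81 (0.98 ± 0.24), Zfp646 (0.92 ± 0.23) and Zfp110 (0.81 ± 0.24) complete the 6 largest increases on the log2 scale. Each of these 3 was lost on leaving out at least 1 library. Zfp81 reached an adjusted p of at most 0.0649 there, Zfp646 0.0645 and Zfp110 0.148.

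The members that were lower in the unwounded cortical fraction included the most abundant of the class. Zfp385a had 189.8, 197 and 184 CPM in the total and 141, 144 and 130.4 CPM in the cortical libraries, with no overlap (log2 fold change -0.46 ± 0.10, adjusted p = 0.00573). Zfp706 had 275, 313 and 254 CPM in the total and 204, 204 and 208 CPM in the cortical libraries, again with no overlap (log2 fold change -0.45 ± 0.10, adjusted p = 0.00745). The largest decrease was that of Zfp428, from 26.6, 36.6 and 26.8 CPM to 17.3, 20.7 and 13.7 CPM (log2 fold change -0.80 ± 0.19, adjusted p = 0.00821). Zfp523, a relative of the activator Zfp143, was at -0.53 ± 0.16, the nucleolar protein Zfp330 at -0.50 ± 0.14, and Zfp64 at -0.38 ± 0.12, on the log2 scale. Zfp385a, Zfp706, Zfp523, Zfp330 and Zfp64 did not pass under library size scaling, where their log2 fold changes kept their sign. Zfp523, Zfp330, Zfp706 and Zfp64 were each also lost without unwounded total replicate 2, as was Zfp428 (adjusted p = 0.0869 at most over its alternatives).

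**Figure D1:**
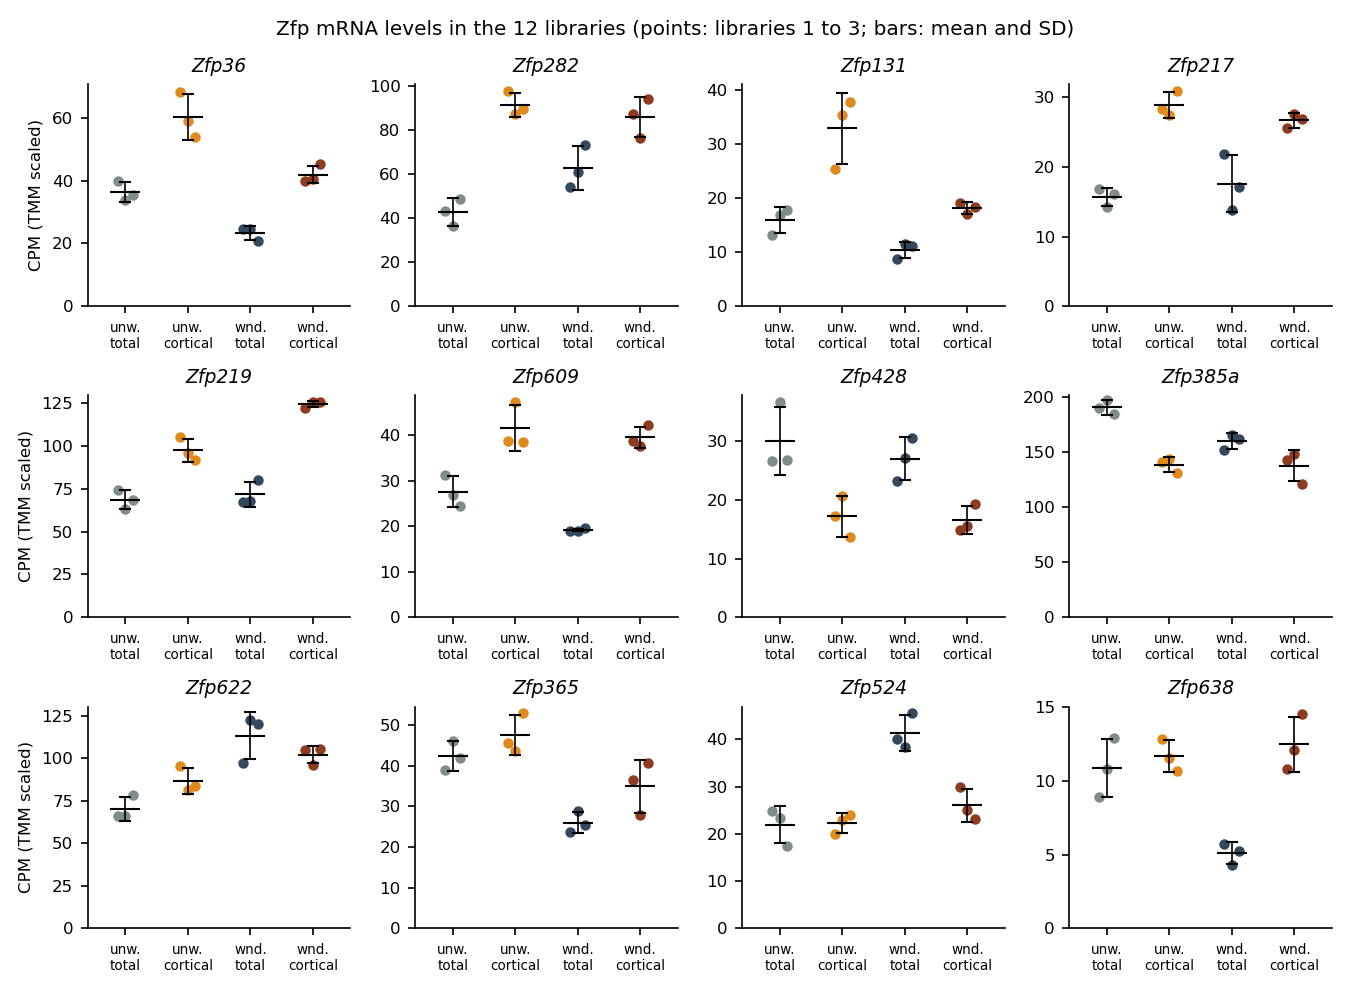
CPM (TMM scaled, linear axes from 0) of 12 Zfp genes in the 3 libraries of each group, with the mean (long bar) and SD (capped bar). Zfp36, Zfp282, Zfp131, Zfp217, Zfp219 and Zfp609 are higher in both cortical groups than in the matching total group, Zfp428 is lower in both, and Zfp638 is low in the wounded total group alone.

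In wounded cells 26 members were higher and 8 lower in the cortical fraction, which is 16.9% of the 201, against 15.7% of all genes tested (7.62% higher, 8.03% lower) and 20.6% of the other protein-coding genes at the same count minimum. The median log2 fold change was 0.07 for members and 0.04 for all genes, and the groups did not overlap for 62 members, against 29.2% of all genes. Library size scaling, under which the median of all genes was 0.25, gave 39 higher and 1 lower. Without wounded total replicate 1 the test called 47 members, 31 higher and 16 lower. Leaving out wounded total replicate 2 or 3 left 15 or 17 calls, leaving out wounded cortical replicate 1, 2 or 3 left 20, 18 and 18, and dropping an unwounded library left 23 to 31.

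Zfp280b had the largest increase among the called members, with 4.21, 1.91 and 3.56 CPM in the total and 8.51, 7.42 and 10.8 CPM in the cortical libraries. The groups did not overlap, and the log2 fold change was 1.47 ± 0.28 (adjusted p = 0.00286). Zfp638, a large nuclear protein that binds DNA and RNA and silences unintegrated retroviral DNA, had 5.76, 4.32 and 5.27 CPM in the total and 10.8, 12.1 and 14.5 CPM in the cortical libraries (log2 fold change 1.29 ± 0.22, adjusted p = 0.00138). Zfp318 stood at 1.38 ± 0.43, Zfp568 at 1.36 ± 0.37, Zfp263 at 1.10 ± 0.31 and Zfp770 at 1.09 ± 0.26 on the log2 scale. Zfp568 is a KRAB repressor of placental Igf2. For Zfp318 and Zfp568 the lowest total values, 0.771 and 0.949 CPM, were those of wounded total replicate 1. The calls of Zfp318, Zfp568 and Zfp263 did not survive the loss of 1 or more single libraries, with adjusted p values up to 0.132, 0.0607 and 0.0674, while those of Zfp280b and Zfp638 passed in each of the 25 alternatives run for them.

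Among the called members, the 6 largest decreases in wounded cells were in Zfp101 (-1.001 ± 0.27), Zfp938 (-0.93 ± 0.29), Zfp672 (-0.85 ± 0.22), Zfp771 (-0.74 ± 0.19), Zfp637 (-0.73 ± 0.21) and Zfp428 (-0.70 ± 0.18) on the log2 scale. Zfp672 had 26.5, 51.7 and 48.98 CPM in the total and 24.6, 19.7 and 25.9 CPM in the cortical libraries, so wounded total replicate 1 lay just above the cortical values and the other 2 total libraries far above them. Zfp428 had 23.3, 27.1 and 30.6 CPM in the total and 14.9, 15.5 and 19.3 CPM in the cortical libraries, with no overlap. Zfp101, Zfp938, Zfp771, Zfp637 and Zfp428 did not pass under library size scaling. All 6 were lost on leaving out at least 1 wounded library, at adjusted p values of up to 0.0891, 0.217, 0.0763, 0.0689, 0.113 and 0.0753 in the order given.

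The comparisons in unwounded and in wounded cells share no library, so they can be set side by side. Of the 15 members higher in unwounded cells 10 (66.7%) were also higher in wounded cells, where they made up 38.5% of 26. The 10 became 17 without wounded total replicate 1, 6 without wounded total replicate 2 or 3 or wounded cortical replicate 2, and 5 without wounded cortical replicate 3. Among all genes 434 were higher in both, which is 3.2% of those tested, 48.3% of the unwounded and 42% of the wounded list. The 10 members are Zfp36, Zfp131, Zfp217, Zfp219, Zfp282, Zfp445, Zfp609, Zfp646, Zfp652 and Zfp750, of which Zfp445 and Zfp652 were named after their values were seen. Zfp428 was the 1 member of 201 lower in both, which is 14.3% of 7 and 12.5% of 8. Among all genes 573 were lower in both, 4.22% of those tested, 55.6% of the unwounded and 52.6% of the wounded list. Calls in opposite directions were found for 0 members. The count lower in both was 4 without wounded total replicate 1 and 0 without unwounded total replicate 2, wounded total replicate 3 or wounded cortical replicate 1 or 2. Across the 201 genes, which are not independent replicates, Spearman's rho between the 2 sets of log2 fold changes was 0.59, against 0.40 over all genes tested. The genes tested were not held to the members' count minimum and were not all protein-coding. These rho values therefore cannot show whether the members differ from comparable genes in this respect.

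Zfp219, a cofactor of Sox9 in cartilage, had 74.5, 63.1 and 68.5 CPM in the unwounded total and 105, 95.7 and 91.8 CPM in the unwounded cortical libraries. In wounded cells it had 67.3, 67.8 and 80.3 CPM in the total and 122, 125 and 125 CPM in the cortical libraries. The groups did not overlap in either state, and the log2 fold changes were 0.51 ± 0.10 (adjusted p = 0.004) and 0.79 ± 0.10 (adjusted p = 0.000394). Zfp609, which works with the cohesin loader Nipbl and the Integrator complex, had 31.3, 26.9 and 24.4 and then 38.7, 47.2 and 38.5 CPM in the unwounded total and cortical libraries. Its wounded libraries held 18.99, 18.98 and 19.5 CPM in the total and 38.7, 37.6 and 42.1 CPM in the cortical fraction. The log2 fold change was 0.59 ± 0.13 in unwounded cells (adjusted p = 0.00671) and 1.04 ± 0.13 in wounded cells (adjusted p = 0.000314). Zfp652, a transcriptional repressor, was at 45.3 ± 3.42, 74.9 ± 3.82, 43.8 ± 9.59 and 69.3 ± 7.88 CPM (mean ± SD, n = 3) in the total and cortical libraries of unwounded and then of wounded cells. Zfp445, a KRAB protein that maintains genomic imprints, was at 23.5 ± 1.48, 34.4 ± 2.65, 20.9 ± 2.65 and 28.8 ± 3.70 CPM in the same order. Zfp36, Zfp131 and Zfp219 passed in both states in each of the 25 alternatives run. In wounded cells Zfp282, Zfp646, Zfp217 and Zfp750 were lost in 8, 10, 7 and 20 of them, at adjusted p values up to 0.293, 0.172, 0.129 and 0.188, and each was lost without wounded cortical replicate 3 and without wounded total replicate 2.

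**Figure D2:**
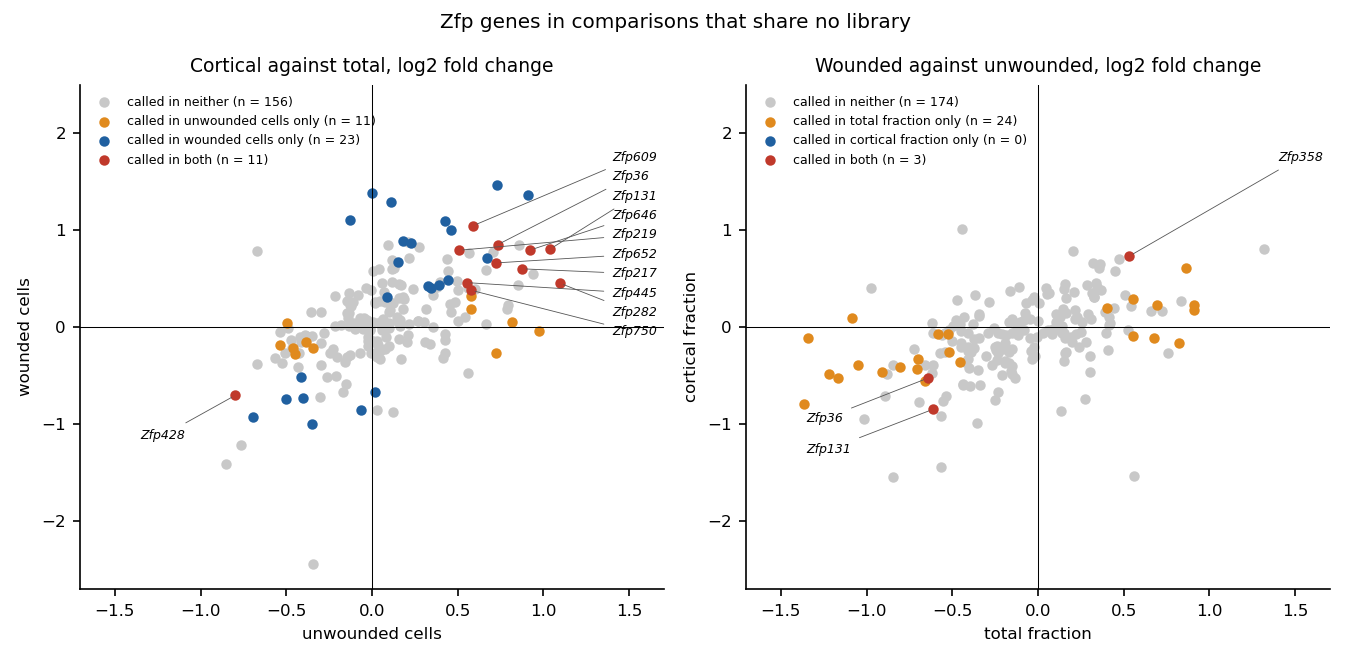
Log2 fold changes (edgeR) of the 201 Zfp genes in pairs of comparisons that share no library; each point is a gene. Left, cortical against total in unwounded (x) and wounded (y) cells: 11 genes passed in both, 10 higher and Zfp428 lower. Right, wounded against unwounded in the total (x) and cortical (y) fraction: Zfp358, Zfp36 and Zfp131 passed in both.

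Coding length went with the difference between fractions, as it did in other genes. In unwounded cells the median log2 fold change of cortical against total was -0.35 for the 19 members with under 1000 coding bases, 0.01 for the 110 with 1000 to 2000, 0.18 for the 48 with 2000 to 3000 and 0.39 for the 24 with 3000 or more. The other protein-coding genes of the same bins stood at -0.27, 0.04, 0.20 and 0.34. In wounded cells the members' medians were -0.16, 0.01, 0.07 and 0.65, and those of the other genes -0.23, 0.08, 0.22 and 0.40. Of the 24 longest members 23 were above 0 in each state, against 83.9% (unwounded) and 86.9% (wounded) of other protein-coding genes of that length. By the test 3 of the 24 were higher in unwounded cells and 10 in wounded cells, and 0 were lower. The 3 in unwounded cells are 12.5% of the bin, against 22.9% of 1556 other long genes called in either direction, and the 10 in wounded cells are 41.7%, against 28.2%. Spearman's rho of coding length with the log2 fold change was 0.41 and 0.36 over the 201 members in unwounded and wounded cells, and 0.48 in both over 11475 protein-coding genes. These are descriptions across genes that share libraries. The number of C2H2 fingers, in contrast, had a rho of 0.03 and -0.10.

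The longest members were among the larger chromatin-associated proteins. Zfp292 (8094 coding bases) had 6.88, 5.62 and 7.42 CPM in the wounded total and 11.1, 13.8 and 15.1 CPM in the wounded cortical libraries, with no overlap (log2 fold change 1.003 ± 0.20, adjusted p = 0.00382). In unwounded cells its values were 8.99, 8.13 and 9.78 and 11.8, 12.3 and 12.9 CPM, at 0.46 ± 0.20 (adjusted p = 0.151). Zfp462 (7485 bases) was at 0.89 ± 0.28 and Zfp318 (6711 bases) at 1.38 ± 0.43 in wounded cells, against 0.18 ± 0.28 and -0.001 ± 0.41 in unwounded cells, all on the log2 scale. At the short end, Zfp706 (228 bases) stood at -0.45 ± 0.10 in unwounded cells (adjusted p = 0.00745) and -0.28 ± 0.10 in wounded cells (adjusted p = 0.0778). Zfp36, with 957 coding bases, was the 1 member under 1000 bases that was higher in unwounded cells, and it was higher in wounded cells too. When a smooth trend on gene length was removed from each library, 20 members were called in unwounded cells (13 higher, 7 lower) and 16 in wounded cells (9 higher, 7 lower), and rho with coding length became 0.26 and 0.25. Of the 10 members higher in both states 4 remained so. Zfp428, the 1 member lower in both, lost its call in each state, while 2 other members were then lower in both.

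**Figure D3:**
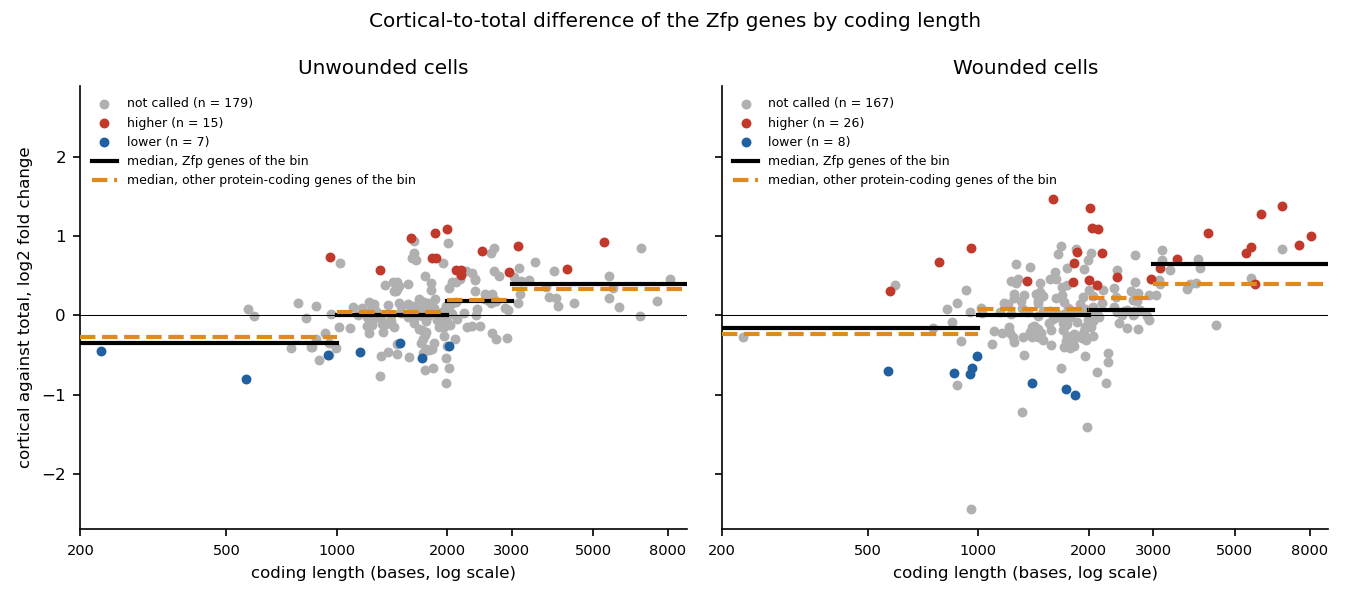
Log2 fold change of cortical against total (y, edgeR) against coding length (x, log scale) for the 201 Zfp genes in unwounded and wounded cells, with colours for the test and lines for the bin medians. The members' medians run from -0.35 to 0.39 in unwounded and from -0.16 to 0.65 in wounded cells, beside those of other protein-coding genes (dashed).

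The KRAB subgroup and the other C2H2 members were set side by side; the difference between their frequencies of calls was not tested. Of the 81 KRAB members 5 were higher and 0 lower in the unwounded cortical fraction (6.17%), against 14 of the 110 other C2H2 members (12.7%, 8 higher and 6 lower). In wounded cells 6 KRAB members were called (7.41%, 4 higher and 2 lower) and 26 of the 110 (23.6%, 20 higher and 6 lower). The background for all genes was 14.2% and 15.7%. These KRAB members are those of the wider pattern, added after seeing the data. By the planned, narrower pattern 1 of 49 (2.04%) was called in unwounded and 3 (6.12%) in wounded cells. The C2H2 members without that pattern gave 18 of 142 (12.7%) and 29 of 142 (20.4%). KRAB genes also had fewer counts, with a median of 157 per library against 277, and 32 of the 81 had a mean of 50 to 100. By mean count, the calls in wounded cells were 1 of 32 KRAB and 2 of 18 other members at 50 to 100 counts, 2 of 19 and 6 of 20 at 100 to 200, 0 of 19 and 7 of 40 at 200 to 400, and 3 of 11 and 13 of 42 at 400 or more, where the other members include those that lack a C2H2 pattern. In unwounded cells 0 of 32 KRAB and 0 of 18 other members were called at 50 to 100 counts. The calls were 1 of 19 and 0 of 20 at 100 to 200, and 1 of 19 and 6 of 40 at 200 to 400. At 400 or more counts they were 3 of 11 and 11 of 42. The 5 called KRAB members of the unwounded comparison were Zfp282, Zfp81, Zfp110, Zfp445 and Zfp120, the last 2 named after their values were seen. Coding length varied less in this subgroup (822 to 3051 bases) and had a rho of 0.21 with the log2 fold change in unwounded and 0.03 in wounded cells. The 120 members without the box had 0.53 and 0.51. By number of fingers, 6 of the 15 members with 0 or 1 finger were called in unwounded cells, 7 of 44 with 2 to 5, 6 of 48 with 6 to 9, 2 of 56 with 10 to 14 and 1 of 38 with 15 or more. In wounded cells 4 of 15, 11 of 44, 9 of 48, 8 of 56 and 2 of 38 were called. These bins were not matched for mean count. The machinery that KRAB proteins recruit was measured beside them. Of 18 such genes tested 4 were higher in the unwounded and 7 in the wounded cortical fraction (22.2% and 38.9%, against 6.62% and 7.62% of all genes higher) and 0 were lower. Coding length was not matched here: other protein-coding genes with 3000 or more coding bases gave 22.6% (unwounded) and 28.0% (wounded) higher. The remodeller subunits Chd3 (0.90 ± 0.12 and 0.60 ± 0.12), Smarca4 (0.70 ± 0.13 and 0.60 ± 0.13) and Chd4 (0.66 ± 0.12 and 0.53 ± 0.12) passed in both states, on the log2 scale. Trim28 itself stood at 184 ± 10.1 and 199 ± 5.26 CPM in unwounded total and cortical libraries (log2 fold change 0.11 ± 0.09, adjusted p = 0.525).

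**Figure D4:**
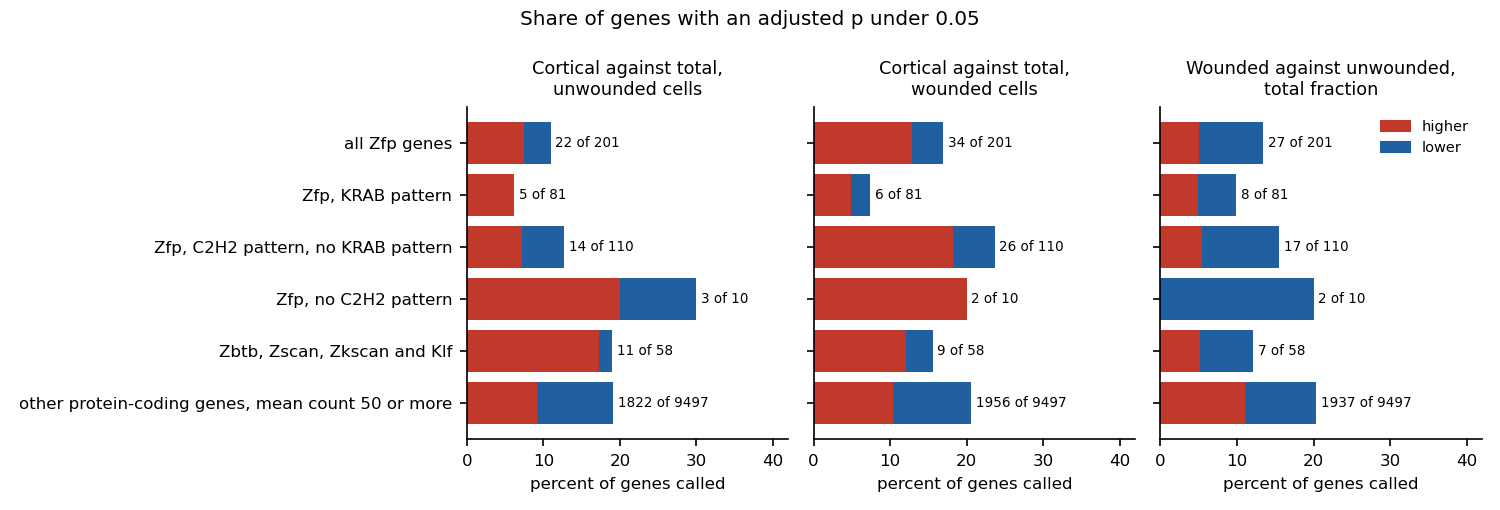
Percent of genes called higher (red) or lower (blue) in 3 comparisons (x) for the Zfp genes, their subgroups by sequence pattern, other zinc finger families and other protein-coding genes with a mean count of at least 50 (y); the numbers beside the bars are genes called of genes tested. KRAB members show 6.17%, 7.41% and 9.88% called, and the other C2H2 members 12.7%, 23.6% and 15.5%. The KRAB pattern is the wider one, added after seeing the data.

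Among the CCCH decay factors, Zfp36 (tristetraprolin) was the 1 gene that passed the test, and it did so in all 4 pairwise comparisons. It stood at 39.9, 33.8 and 35.3 CPM in unwounded total, 68.2, 58.9 and 53.7 in unwounded cortical, 24.5, 24.6 and 20.7 in wounded total and 40.01, 40.6 and 45.2 in wounded cortical libraries. All 3 cortical libraries were above all 3 total libraries in each state, and all wounded libraries were below the unwounded libraries of the same fraction. The cortical-to-total log2 fold change was 0.73 ± 0.13 in unwounded (adjusted p = 0.00126) and 0.85 ± 0.13 in wounded cells (adjusted p = 0.000699). After wounding it fell by 0.64 on the log2 scale in the total fraction (adjusted p = 0.00293) and fell by 0.53 in the cortical fraction (adjusted p = 0.0347). The last call was lost on leaving out any 1 of the 6 cortical libraries (adjusted p up to 0.174) and under library size scaling. Zfp36l2 had a mean FPKM of 21.4, above Zfp36 at 11.6 and Zfp36l1 at 2.20 per length. Its log2 fold changes between fractions were 0.32 ± 0.14 (adjusted p = 0.157) and 0.18 ± 0.14 (adjusted p = 0.43), and Zfp36l1, measured with few counts, was at -0.14 ± 0.32 and 0.09 ± 0.32. Of 17 CCR4-NOT and decay partners tested, 3 were higher and 1 lower in the unwounded cortical fraction (23.5%, against 14.2% of all genes) and 3 were higher in the wounded one (17.6%, against 15.7%, which is close to the background). The decapping genes Dcp2 (0.54 ± 0.12 and 0.43 ± 0.12) and Dcp1a (0.63 ± 0.19 and 0.62 ± 0.19) passed in both states, Ddx6 (0.39 ± 0.12) in unwounded and Pabpc1 (0.43 ± 0.10) in wounded cells, and Cnot3 was lower in unwounded cells (-0.54 ± 0.16), all on the log2 scale.

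The 11 members with roles in ribosomes, translation or RNA binding had 4 lower (36.4%, against 7.59% of all genes) and 0 higher in the unwounded cortical fraction, with a median log2 fold change of -0.30. Other protein-coding genes with under 1000 coding bases had 21.4% lower there, and the list was not matched for coding length. The 4 lower members are Zfp385a, Zfp706, Zfp330 and Zfp207, a microtubule-binding spindle protein at -0.34 ± 0.11 (adjusted p = 0.0448). Zfp207 was lost in 15 of 25 alternatives, among them the loss of any wounded cortical library and of 5 of the 6 unwounded libraries. In wounded cells 2 were higher (18.2%, against 7.62% of all genes), Zfp638 and Zfp106, 0 were lower, and the median was -0.10. Zfp106, an RNA-binding protein with 5664 coding bases, was at 0.40 ± 0.12 (adjusted p = 0.0303), and lost its call without wounded total replicate 2 and without wounded cortical replicate 1 or 3. The ribosome collision sensor Zfp598 stood at -0.30 ± 0.13 (adjusted p = 0.138) and -0.17 ± 0.13 (adjusted p = 0.428). 

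Of 8 members with roles in keratinocyte differentiation and growth, 3 were higher in the unwounded and 4 in the wounded cortical fraction, and 0 were lower. All genes tested gave 6.62% and 7.62% higher, the background also for the lists of 13 and 9 members below. Zfp750, an epidermal differentiation factor downstream of p63, had 42.7, 38.7 and 47.1 CPM in the unwounded total and 59.3, 68.3 and 64.4 CPM in the unwounded cortical libraries, with no overlap (log2 fold change 0.58 ± 0.12, adjusted p = 0.00453). In wounded cells it had 42.2, 34.6 and 37.3 CPM in the total and 54.9, 46.2 and 47.3 CPM in the cortical libraries (0.38 ± 0.12, adjusted p = 0.0436). The other calls were those of Zfp217 and Zfp36 in both states and Zfp148 in wounded cells (0.49 ± 0.15, adjusted p = 0.0393), which was lost in 17 of 25 alternatives. Zfp703, a corepressor of the Groucho pathway, stood at 0.16 ± 0.20 and 0.07 ± 0.20, and Zfp185 at -0.36 ± 0.29 and 0.16 ± 0.29, on the log2 scale. Of 13 large multi-finger chromatin members 1 was higher in unwounded cells (Zfp609) and 4 in wounded cells (Zfp318, Zfp609, Zfp292 and Zfp462), with medians of 0.24 and 0.71, and 12 of 13 were above 0 in each state. Among other protein-coding genes with 3000 or more coding bases 22.6% (unwounded) and 28.0% (wounded) were higher, and 83.9% and 86.9% were above 0. The list was not matched for coding length. The call of Zfp462 was lost in 9 of the 12 fits that left out 1 library (adjusted p up to 0.159). Of 9 widely expressed C2H2 activators and architectural proteins, Zfp131 and Zfp219 were higher and Zfp64 lower in unwounded cells. In wounded cells Zfp263, Zfp131, Zfp219 and Zfp740 were higher, and Zfp740 (0.31 ± 0.10 on the log2 scale, adjusted p = 0.0366) lost its call in 9 of 12 such fits (adjusted p up to 0.136). Zfp143, Zfp384, Zfp410 and Zfp91 did not pass in either state, with log2 fold changes of -0.13, -0.20, -0.15 and 0.10 in unwounded and -0.29, -0.31, 0.27 and 0.17 in wounded cells.

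Wounded cells were then compared with unwounded cells within each fraction. In the total fraction 10 members were higher and 17 lower after wounding, 13.4% of the 201, against 15.6% of all genes tested (8.39% higher, 7.2% lower) and 20.4% of the other protein-coding genes at the same count minimum. The median log2 fold change was -0.12 for members and -0.03 for all genes, and the groups did not overlap for 65 members, against 32.1% of all genes. The members' median relative to all genes was -0.09, -0.04 without wounded total replicate 3, and -0.003 over the members with a mean count of at least 200. Library size scaling, under which the median of all genes was -0.10, gave 6 higher and 20 lower, and removal of the gene length trend gave 13 and 11. Without wounded total replicate 1 the test called 40 members, 15 higher and 25 lower. It called 13 and 14 without unwounded total replicate 1 and 2, and 16 without wounded total replicate 3.

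The members that were higher in wounded total libraries were led by Zfp949 (0.91 ± 0.21), Zfp524 (0.91 ± 0.16), Zfp53 (0.86 ± 0.19), Zfp653 (0.82 ± 0.16), Zfp622 (0.69 ± 0.11) and Zfp672 (0.67 ± 0.22) on the log2 scale. Zfp622, the ribosome assembly factor, had 66.4, 66.05 and 78.5 CPM in the unwounded total and 97.6, 123 and 120.3 CPM in the wounded total libraries (adjusted p = 0.00078). Zfp524 had 24.9, 23.4 and 17.5 CPM in unwounded and 39.99, 38.4 and 45.5 CPM in wounded total libraries (adjusted p = 0.000956). Neither gene's groups overlapped. In the cortical fraction Zfp622 was at 95.7, 81.4 and 83.9 CPM before and 105, 96.4 and 105 CPM after wounding (0.23 ± 0.11, adjusted p = 0.313), and Zfp524 at 19.97, 22.9 and 24 and 29.8, 25.1 and 23.2 CPM (0.23 ± 0.16, adjusted p = 0.499). Zfp949, Zfp53 and Zfp653 passed in all 25 alternatives run, and Zfp672 in 10.

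The members that were lower in wounded total libraries were led by Zfp800 (-1.37 ± 0.42), Zfp263 (-1.34 ± 0.31), Zfp280b (-1.22 ± 0.29), Zfp142 (-1.16 ± 0.28), Zfp638 (-1.09 ± 0.22) and Zfp770 (-1.05 ± 0.26) on the log2 scale. Zfp638 had 8.91, 10.8 and 12.9 CPM in the unwounded total and 5.76, 4.32 and 5.27 CPM in the wounded total libraries (adjusted p = 0.00343). Zfp263 had 5.79, 6.21 and 5.77 CPM in unwounded and 1.72, 2.47 and 2.82 CPM in wounded total libraries (adjusted p = 0.00743). In the cortical fraction the same 2 genes had log2 fold changes of 0.09 ± 0.21 (adjusted p = 0.887) and -0.11 ± 0.30 (adjusted p = 0.9). Zfp263, Zfp280b, Zfp142, Zfp638 and Zfp770 are also among the members called higher in the wounded cortical fraction, a comparison that uses the same wounded total libraries. There Zfp142 lost its call in 9 of the 12 fits that left out 1 library (adjusted p up to 0.164). After wounding, Zfp142 was lost without unwounded total replicate 1 and Zfp770 without unwounded total replicate 2 (adjusted p = 0.091 and 0.0603). Zfp800 was lost without any 1 of the unwounded total libraries and without wounded total replicate 2 or 3 (adjusted p up to 0.141). Zfp365, a centrosomal protein, had 38.8, 46.2 and 41.8 CPM in unwounded and 23.6, 28.7 and 25.5 CPM in wounded total libraries, with no overlap (log2 fold change -0.70 ± 0.15, adjusted p = 0.00404).

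In the cortical fraction 3 members passed, 1.49% of the 201 against 2.48% of all genes tested (1.6% higher, 0.884% lower) and 3.4% of the other protein-coding genes at the same count minimum. Zfp358 was higher after wounding, and Zfp131 and Zfp36 were lower. The groups did not overlap for 47 members, against 26.9% of all genes. Zfp358 had 10.3, 9.95 and 8.75 CPM in unwounded and 15.9, 15.03 and 17.4 CPM in wounded cortical libraries (log2 fold change 0.73 ± 0.17, adjusted p = 0.0323). Zfp131 had 25.5, 35.5 and 37.9 CPM and 19.1, 17.1 and 18.4 CPM in the same groups (log2 fold change -0.85 ± 0.18, adjusted p = 0.0186). These 3 genes passed in the same direction in the total fraction (among all genes 1.36% were higher and 0.538% lower in both), where Zfp358 was at 0.53 ± 0.17 (adjusted p = 0.0432) and Zfp131 at -0.61 ± 0.19 (adjusted p = 0.0336); these 2 calls were lost in 15 and 10 of 25 alternatives. Without wounded total replicate 1 the cortical count was 16, and it was 0 without unwounded cortical replicate 2 or 3 or any wounded cortical library. Zfp131 lost its call in those 5 fits (adjusted p up to 0.105), and Zfp358 in 14 of 25 alternatives. Library size scaling left 0 higher and 1 lower, while DESeq2 called 8 members and voom with library quality weights 16.

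Whether the difference between fractions changed with wounding was tested as an interaction, the cortical-to-total log2 fold change in wounded minus that in unwounded cells. edgeR called 0 of 201 members, against 17 of all genes tested (0.125%). An unadjusted p under 0.05 was found for 16 of the 201 members, against 1228 of all 13571 genes tested. DESeq2 called Zfp653, as did the fit without a count filter. Voom with library quality weights called 11 members, and the edgeR fit without wounded total replicate 1 called 6. The shares of all genes called in these fits are not given here. The 6, chosen after their values were seen, were Zfp672 (-1.04 ± 0.23), Zfp653 (-0.89 ± 0.23), Zfp282 (-0.74 ± 0.17), Zfp622 (-0.56 ± 0.14), Zfp146 (0.91 ± 0.25) and Zfp638 (1.27 ± 0.32), as log2 interaction and SE. All 6 were also among the 11 of voom. With all 12 libraries the values of Zfp653, Zfp282 and Zfp638 were -0.99 ± 0.23 (adjusted p = 0.197), -0.64 ± 0.19 (adjusted p = 0.302) and 1.18 ± 0.31 (adjusted p = 0.275). Zfp653 had 12.4, 14.2 and 14.96 CPM in unwounded total, 19.2, 22.6 and 26.9 in unwounded cortical, 27.7, 21.4 and 24.2 in wounded total and 20.3, 21.4 and 19.4 in wounded cortical libraries. It was thus lowest in the unwounded total group and overlapped in range in the other 3.

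Other zinc finger families with numbered symbols, at the same count minimum, gave 58 genes: 33 Zbtb genes, which pair a BTB domain with C2H2 fingers, 14 Zscan and Zkscan genes, and 11 Klf genes. In the unwounded cortical fraction 10 were higher and 1 lower (19.0%), in the wounded cortical fraction 7 and 2 (15.5%), and after wounding 3 and 4 in the total (12.1%) and 0 in the cortical fraction. All genes tested stood at 14.2%, 15.7%, 15.6% and 2.48% in the same order, so the wounded cortical share is at the background. Their median log2 fold changes between fractions were 0.22 and 0.27, beside 0.07 and 0.07 for the 201 Zfp members. The difference between the families was not tested. Over the 4 pairwise comparisons 58 of the 201 Zfp members were called at least once (28.9%, against 31% of all genes tested and 40.6% of the other protein-coding genes at the same count minimum) and 143 in none.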

How the data were processed

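Polyadenylated RNA of 12 libraries was sequenced after non-directional library preparation, per the labels' protocols. The submitters' processing notes name mm10, HISAT2 and CASAVA without roles or versions; the counting tool is not given in the sources used here. The deposited table holds raw counts and FPKM values per gene, both made by the authors. Counts were tested with edgeR 4.0.16 (R 4.3.3; TMM scaling, filterByExpr, quasi-likelihood F test over all 4 groups, 13571 genes, Benjamini-Hochberg, threshold 0.05), after tests on simulated data. FPKM served for levels between genes and in limma 3.58.1 alternatives (pseudocount 1 or 0.1); DESeq2 1.42.0 was another. Coding length and fingers came from translated GENCODE M21 transcripts in place of the planned RefSeq proteins, which were not used here; all 201 symbols matched, 197 with the same coordinates and strand. Positions are those of GRCm38. Named members were the 6 called changes of largest size per direction and comparison whose sign was equal in each same-numbered pair, the 5 of highest mean FPKM, the genes at the count minimum and every member of the role lists; other names are marked. Members and lists were chosen with earlier results of these data known.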

Additional observations from a re-analysis of the deposited data

How the results depend on the processing

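Of the 1650 values of the 66 named calls under 25 alternatives each, 1320 kept direction and threshold, 330 kept direction but lost the threshold, and 0 reversed. Of 6534 values of 264 named results that did not pass, 146 passed under an alternative. In unwounded cells 22 members were called between fractions, against 47 with voom quality weights and 37 in a fit of the compared groups alone. In wounded cells 34 were called, against 21 and 22 with limma on log2 FPKM plus 1 and plus 0.1, 63 with voom, 11 in the fit of the compared groups and 16 with the gene length trend removed, with or without the replicate block. The members' median between fractions was 0.26 in unwounded and 0.28 in wounded cells under library size scaling, and -0.036 in wounded cells with the length trend removed (-0.048 with the block too). The Spearman correlation with coding length became 0.26 in unwounded and 0.25 in wounded cells without the trend, and 0.25 in each with the block too. For wounding in the total fraction 27 calls became 76 with voom and 12 in the fit of the compared groups, and the median became -0.018 with the length trend removed and -0.0197 with the block too. For wounding in the cortical fraction 3 calls became 1 under library size scaling, 8 with DESeq2, 16 with voom, 6 without the count filter and 11 in the fit of the compared groups. For the interaction 0 calls became 1 with DESeq2, 11 with voom and 1 without the filter, and the median became -0.084 with the length trend removed and -0.081 with the block too. The planned, narrower KRAB pattern held 49 members, of which 1, 3 and 5 were called in the unwounded, wounded and total-fraction wound comparisons; a looser one gave 2 in unwounded cells, and the wider one, added after seeing the data, gave 5, 6 and 8. Leaving out 1 library gave 12 to 37, 15 to 47, 13 to 40, 0 to 16 and 0 to 6 calls in the 5 comparisons in the order above. These counts of members stand without the share of all genes called in the same fits. The causes were not tested.

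Libraries of different groups share only a replicate number: deviations of same-numbered libraries correlated at -0.05 to 0.22 over 10386 genes, and 4 of 12 libraries correlated best with their own number. With the replicate block 22, 28, 24, 2 and 0 members were called. Depth limits the members with few counts: of the 50 with a mean of 50 to 100 counts, 0 were called between fractions in unwounded and 3 in wounded cells.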
